A study of Caenorhabditis elegans with 9 samples.

Results

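Heat shock factor 1 (hsf-1) and 8 large chaperones of the cytosol and mitochondria (hsp-90, sti-1, hsp-1, hsp-70, hsp-110, dnj-13, hsp-6 and hsp-60) were followed across 4 Caenorhabditis elegans strains on Affymetrix arrays. The genes were found by the symbol that the array's annotation gives to each probe set, a group of short probes that reads 1 transcript or a few. All 9 genes had at least 1 probe set that names no other gene, 15 probe sets in all, out of 17118 genes and 22548 probe sets measured. For 6 genes there were 2 such probe sets, called here the brighter and the dimmer by their mean signal, and for sti-1, hsp-1 and hsp-70 there was 1. By the array maker's naming, 7 of the 15 are of the s type and 1 (the brighter of hsf-1) of the x type, which can take up more than 1 transcript, and the other 7 are of the plain type. The only probe sets of sti-1 and hsp-70 are of the s type. The level of 1 probe set was never set against that of another.

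Wild-type Bristol N2 (2 arrays), the single mutants nth-1(ok724) (3 arrays) and xpa-1(ok698) (2 arrays), and a double mutant that carries both alleles, nth-1;xpa-1 (2 arrays), were compared. NTH-1 is a DNA glycosylase that starts base excision repair, and XPA-1 is a damage-binding factor of nucleotide excision repair. The double mutant was built for the study, and the strains had been backcrossed shortly before use. Whole animals of mixed stages were grown on HT115(DE3) bacteria until the plates were cleared of food, so each value is a mean over many tissues and ages and in each strain fewer cells of a type and less RNA per cell cannot be told apart.

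HSF-1 is the conserved transcription factor that binds heat shock elements and drives chaperone genes when proteins misfold, and in C. elegans it is also needed for normal development and lifespan. In the cytosol, Hsp70 proteins bind unfolded stretches with the help of J proteins and exchange factors, and pass some clients to Hsp90 through the adaptor STI-1. In mitochondria, HSP-6 takes the place of Hsp70 and HSP-60 forms the folding chamber. The genes of both are the usual readouts of the mitochondrial unfolded protein response, in which the factor ATFS-1 moves to the nucleus.

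The xpa-1 transcript, which checks the labels, was 10.57 and 10.58 (log2) in N2 and 10.35 to 10.69 in nth-1, against 5.66 and 6.59 in xpa-1 and 5.78 and 6.03 in the double mutant. The nth-1 transcript was 9.32 and 9.63 in N2 and 9.37 to 9.63 in nth-1, and since the position of its probes relative to the deletion is not given in the sources used here, it checks nothing. The arrays fell into 2 sets by the hybridization control BioC, which was 9.54 to 9.99 (log2) in both N2 arrays, both double mutant arrays and replicate 1 of xpa-1, and lower, at 8.04 to 8.28, in the 3 nth-1 arrays and replicate 2 of xpa-1. The comparison of the double mutant with N2 lies within 1 set, while nth-1 shares none with N2 or with the double mutant. Differences of nth-1 from these 2 strains therefore cannot be told apart from differences between the sets. nth-1 replicate 3 correlated with replicates 1 and 2 of its strain at r = 0.950 and 0.952 across probe sets, where the other pairs of replicates lay between 0.980 and 0.994.

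Most of the 15 probe sets were lower in the double mutant than in either single mutant, and hsp-70 was higher than in both. Of the 15 differences, 13 from xpa-1 and 11 from nth-1 were below 0. The share of all probe sets below 0 is not given here. Against nth-1, hsp-6 was also higher on its brighter (0.55) and dimmer (0.18) probe sets, and hsp-60 on its dimmer (0.60), without a call. Each difference is on the log2 scale with its standard error (SE), and p-values come from a single limma model over the 9 arrays, adjusted by Benjamini-Hochberg across the 22548 probe sets with 0.05 as the threshold. Against xpa-1, 8 of the 15 probe sets were called lower in the double mutant and 1 was called higher, where 15.5% of all probe sets tested were called lower and 19.4% higher. The median of the 15 was -0.86, against 0.11 over all probe sets. Against nth-1, 5 were called lower and 1 higher (15% and 21.7% of all probe sets), with a median of -0.40 against 0.13. The 8 probe sets that fell against xpa-1 belong to 5 genes (hsf-1, sti-1, hsp-110, dnj-13 and hsp-60), and the 5 that fell against nth-1 belong to 4 of these, all but sti-1.

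Against N2 few calls were made. In xpa-1, 1 probe set of the 15 rose (3.89% of all probe sets rose and 6.65% fell), and 10 were higher at an unadjusted p under 0.05, with a median of 0.55 against -0.04 over all probe sets. In nth-1, limma called 0 of 15 in either direction (3.06% of all rose and 6.98% fell), with 4 higher and 1 lower at an unadjusted p under 0.05 and a median of 0.29. In the double mutant limma also called 0 of 15 (4.24% of all rose and 4.4% fell), with 2 higher and 0 lower at an unadjusted p under 0.05 and a median of -0.21. In the double mutant both arrays lay below both N2 arrays for 8 of the 15 probe sets (31.1% of all probe sets) and above them for 5 (37.9% of all). Between xpa-1 and nth-1 limma called 0 of 15, with 5 higher and 0 lower in xpa-1 at an unadjusted p under 0.05, and 0.0266% of all probe sets were called. The share of all probe sets at an unadjusted p under 0.05 is not given here. Counts at that threshold therefore cannot be read as particular to these genes.

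The interaction, that is the change in the double mutant minus the sum of the changes in the single mutants, was below 0 for 13 of the 15 probe sets and above 0 for 2, and it was called negative for 9 and called positive for 1 (16.4% and 23% of all probe sets were called in these directions). Its median was -1.06 over the 15 and 0.17 over all. The comparisons share arrays, so they are not separate support for each other.

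**Figure D1:**
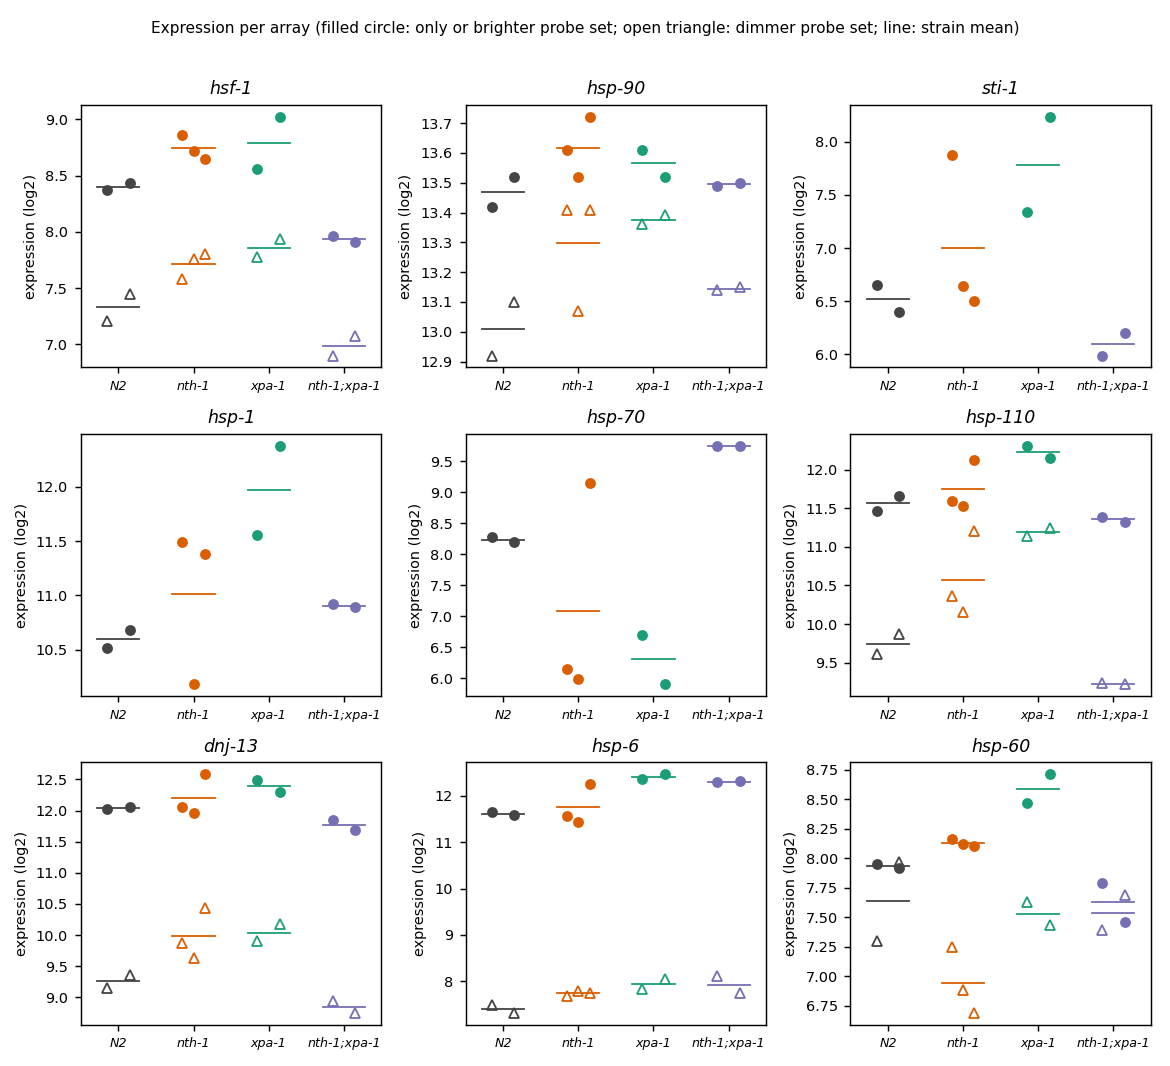
Expression (log2) of the 9 genes on each array, with strains along the x axis, filled circles for the brighter or only probe set, open triangles for the dimmer and lines for strain means. By strain mean, hsf-1, sti-1, hsp-110, dnj-13 and the brighter probe set of hsp-60 are lowest in the double mutant and highest in xpa-1, hsp-70 runs the other way, and the nth-1 arrays are far apart for hsp-70 (5.98 to 9.15), hsp-1 and sti-1.

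These calls rest on few arrays. In each fit below that gave fewer calls, fewer of all probe sets were called as well. With the BioC sets as a block the share of all was 25% against xpa-1 (34.8% without the block). It was 4.78% against nth-1 (36.7% without) and 6.34% for the interaction (39.4% without). Against xpa-1 the 9 calls became 2 without double mutant replicate 1, 2 without its replicate 2 and 4 without xpa-1 replicate 2, and with the BioC sets as a block 4 were left. Against nth-1 the 6 calls became 0 and 1 without double mutant replicates 1 and 2, and 0 with the block (0 also at an unadjusted p under 0.05). The 10 interaction calls became 5 without N2 replicate 1, 5 and 6 without double mutant replicates 2 and 1, 6 without xpa-1 replicate 2 and 0 with the block (3 at an unadjusted p under 0.05), which estimates the difference between the sets from the 2 xpa-1 arrays alone. Against N2, leaving out nth-1 replicate 3 gave 12 calls in xpa-1 and 4 in the double mutant, in fits that called 28.6% and 26.2% of all probe sets.

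The regulator itself was among the genes that fell. On its brighter probe set, hsf-1 (Y53C10A.12) was 8.37 and 8.43 in N2, 8.86, 8.72 and 8.65 in nth-1, 8.56 and 9.02 in xpa-1, and 7.96 and 7.91 in the double mutant. The dimmer probe set gave 7.21 and 7.45 in N2, 7.58, 7.76 and 7.80 in nth-1, 7.78 and 7.94 in xpa-1, and 6.90 and 7.07 in the double mutant. On both, every array of a single mutant lay above both N2 arrays and both double mutant arrays lay below them. The 2 probe sets correlated at r = 0.90 over the 9 arrays.

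From xpa-1 to the double mutant hsf-1 fell by 0.86 (SE 0.21, adjusted p = 0.013) on the brighter and by 0.88 (SE 0.17, adjusted p = 0.0051) on the dimmer probe set. Against nth-1 the differences were -0.81 (adjusted p = 0.011) and -0.73 (adjusted p = 0.0074). Both interactions passed under every omission of an array (highest adjusted p 0.048 and 0.022), although not with the BioC sets as a block. Against N2 hsf-1 differed by 0.34 (adjusted p = 0.28) in nth-1, 0.39 (adjusted p = 0.25) in xpa-1 and -0.47 (adjusted p = 0.19) in the double mutant on the brighter probe set, so none of the 3 strains was separated from the wild type by the test. The calls against xpa-1 were lost without double mutant replicate 1 on both probe sets (highest adjusted p 0.084 and 0.051), and on the brighter also without double mutant replicate 2 or xpa-1 replicate 2. Against nth-1 they were lost without double mutant replicate 1 on both (highest adjusted p 0.087 and 0.078) and without replicate 2 on the brighter. Within the BioC set that holds xpa-1 replicate 1 and both double mutant arrays, the differences were -0.63 and -0.80, and the dimmer probe set passed the blocked fit (adjusted p = 0.030) while the brighter did not (adjusted p = 0.066).

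No gene of the partners of HSF-1 was called. Of 4 genes of its binding partners and the ddl group (hsb-1, ddl-1, ddl-2 and ddl-3), limma called 0 in each of the 7 comparisons, with 0 to 2 at an unadjusted p under 0.05. HSB-1 is a small protein that binds HSF-1 and holds it back, and its gene was 11.76 and 11.68 in N2, 11.62 and 11.33 in xpa-1, and 11.34 and 11.18 in the double mutant. It differed by -0.46 between the double mutant and N2 (adjusted p = 0.10).

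The Hsp90 gene was called for the interaction alone, on 1 of its 2 probe sets. On the brighter probe set hsp-90 (C47E8.5, also known as daf-21) was 13.42 and 13.52 in N2, 13.61, 13.52 and 13.72 in nth-1, 13.61 and 13.52 in xpa-1, and 13.49 and 13.50 in the double mutant. All 9 arrays lay within 13.42 to 13.72, near the highest value that any probe set reached, and the strains overlapped except that the double mutant was below both single mutants. Its differences from N2 were 0.15 (SE 0.07, adjusted p = 0.24) in nth-1, 0.10 (SE 0.08, adjusted p = 0.48) in xpa-1 and 0.03 (SE 0.08, adjusted p = 0.88) in the double mutant. The dimmer probe set ran from 12.92 in N2 to 13.41 in nth-1. Both its xpa-1 arrays lay above both N2 arrays (0.37, SE 0.12, adjusted p = 0.091), and it gave the only hsp-90 call, an interaction of -0.52 (SE 0.17, adjusted p = 0.036), which was lost without 6 of the 9 arrays (both xpa-1, both double mutant, N2 replicate 1 and nth-1 replicate 1, highest adjusted p 0.13).

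The gene sti-1 (R09E12.3), the worm counterpart of the Hsp70-Hsp90 organizing protein Hop, was 6.65 and 6.40 in N2, 7.87, 6.64 and 6.50 in nth-1, 7.34 and 8.23 in xpa-1, and 5.99 and 6.20 in the double mutant. Both N2 arrays lay below xpa-1 and above the double mutant, while nth-1 replicate 1 stood more than 1 log2 unit above the other nth-1 arrays. The double mutant differed from xpa-1 in sti-1 by -1.69 (SE 0.44, adjusted p = 0.018 from limma), a call that was lost without double mutant replicate 1 or 2 or xpa-1 replicate 2 (highest adjusted p 0.12) and with the BioC sets as a block (-1.25, adjusted p = 0.12). Against N2 the difference in xpa-1 was 1.26 (SE 0.44, adjusted p = 0.10).

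Of 8 other co-chaperones of Hsp90, limma called 0 in each mutant against N2 (0 in nth-1, 2 in xpa-1 and 2 in the double mutant at an unadjusted p under 0.05), and 4 were called lower and 0 higher in the double mutant against xpa-1 (15.5% and 19.4% of all probe sets). These 4 were named after their values were seen. They were cdc-37 (-1.17, adjusted p = 0.047), which brings kinases to Hsp90, daf-41, the p23 homologue (-0.54, adjusted p = 0.036), the immunophilin gene fkb-6 (-0.74, adjusted p = 0.0080) and sgt-1 (-0.60, adjusted p = 0.0036).

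**Figure D2:**
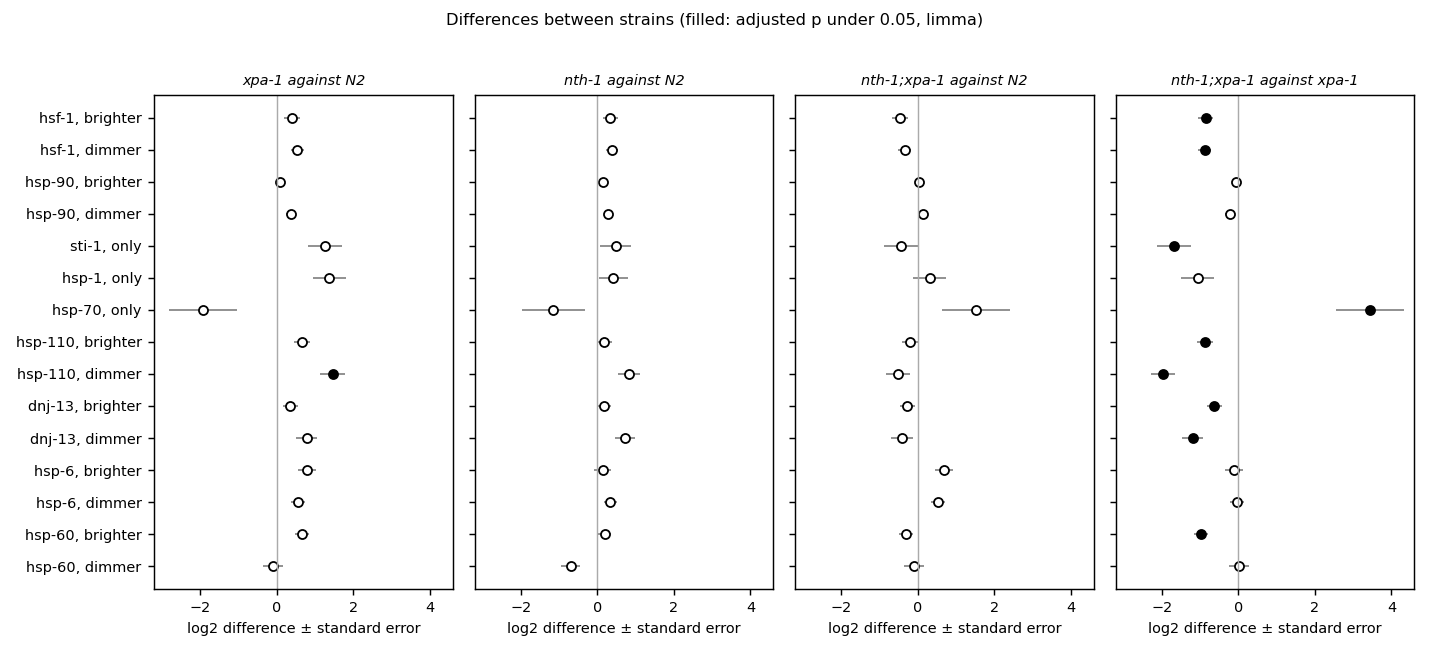
Log2 differences with standard errors for the 15 probe sets in 4 comparisons, filled where the adjusted p from limma was under 0.05. The single filled point against N2 is the dimmer probe set of hsp-110 in xpa-1 (1.46), and 9 points are filled for the double mutant against xpa-1, with hsp-70 at 3.45 and the other 8 below 0.

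The cytosolic Hsp70 family is represented by a constitutive and a heat-inducible gene. The constitutive hsp-1 (F26D10.3), the worm Hsc70, was 10.51 and 10.68 in N2, 11.49, 10.18 and 11.38 in nth-1, 11.56 and 12.38 in xpa-1, and 10.92 and 10.89 in the double mutant. The xpa-1 arrays were the highest, nth-1 replicates 1 and 3 came next, and nth-1 replicate 2 was the lowest of all 9. Its difference in xpa-1 against N2 was 1.38 (SE 0.42, adjusted p = 0.073 from limma), and in the double mutant against xpa-1 it was -1.07 (SE 0.42, adjusted p = 0.082), so neither passed.

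The heat-inducible hsp-70 (C12C8.1), which is low without stress and is a classical target of HSF-1, was 8.28 and 8.19 in N2, 6.14, 5.98 and 9.15 in nth-1, 6.70 and 5.90 in xpa-1, and 9.74 and 9.75 in the double mutant. These values come from a single probe set of the s type, so other transcripts may add to them. The double mutant was above all other arrays and xpa-1 was below N2, while nth-1 was split, with replicate 3 above N2 and replicates 1 and 2 more than 2 log2 units below it. The difference of the double mutant from xpa-1 in hsp-70 was 3.45 (SE 0.89, adjusted p = 0.017 from limma), that from nth-1 2.66 (SE 0.81, adjusted p = 0.032), and the interaction was 4.59 (SE 1.20, adjusted p = 0.016). The first was lost without double mutant replicate 1 or 2 or xpa-1 replicate 2 (highest adjusted p 0.094), the second without double mutant replicate 1 or 2, N2 replicate 1 or 2 or nth-1 replicate 1 or 2 (highest 0.14) and the third without double mutant replicate 1 or 2, N2 replicate 1 or 2 or xpa-1 replicate 2 (highest 0.061). Within the BioC set that holds xpa-1 replicate 1, the first difference was 3.05 (adjusted p = 0.094 with the sets as a block).

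The spread of hsp-70 in the fit came from the nth-1 arrays. Against N2 the differences were -1.15 (adjusted p = 0.40) in nth-1, -1.94 (adjusted p = 0.19) in xpa-1 and 1.51 (adjusted p = 0.32) in the double mutant. Without nth-1 replicate 3 they were -2.18 (adjusted p = 0.00022), -1.94 (adjusted p = 0.00036) and 1.51 (adjusted p = 0.0016). Fitted with the arrays of those 2 strains alone, xpa-1 differed from N2 by -1.94 (adjusted p = 0.0088).

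The exchange factor gene hsp-110 (C30C11.4), whose product helps Hsp70 release its clients and pull aggregates apart, fell from xpa-1 to the double mutant on both probe sets. On the dimmer probe set it was 9.61 and 9.87 in N2, 10.36, 10.15 and 11.20 in nth-1, 11.14 and 11.25 in xpa-1, and 9.23 and 9.22 in the double mutant. On the brighter it was 11.47 and 11.66 in N2, 11.59, 11.53 and 12.13 in nth-1, 12.31 and 12.15 in xpa-1, and 11.39 and 11.32 in the double mutant. On both probe sets xpa-1 was above N2 and the double mutant below it with no overlap, and nth-1 replicate 3 was level with xpa-1 while the other 2 nth-1 arrays were nearer to N2.

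On the dimmer probe set hsp-110 rose in xpa-1 against N2 by 1.46 (SE 0.32, adjusted p = 0.025 from limma), the only call against the wild type. It was lost without either array of N2, xpa-1 or the double mutant (highest adjusted p 0.18) and with the BioC sets as a block, where xpa-1 replicate 1 alone gave 1.40. On the brighter probe set this difference was 0.67 (adjusted p = 0.072). Between the double mutant and xpa-1 the differences were -1.97 (SE 0.32, adjusted p = 0.0025) on the dimmer and -0.88 (SE 0.20, adjusted p = 0.011) on the brighter. The first passed under every omission of an array (highest adjusted p 0.024) and with the block (-1.92, adjusted p = 0.017), and the second passed with the block (-0.96, adjusted p = 0.035) but not without either double mutant array or xpa-1 replicate 1 (highest 0.072). Against nth-1 the dimmer probe set differed by -1.35 (adjusted p = 0.0082), which was lost without either double mutant array (highest 0.062).

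The J protein gene dnj-13 (F54D5.8), a counterpart of human DNAJB1 that delivers clients to Hsp70, also fell from xpa-1 to the double mutant on both probe sets. On the dimmer probe set it was 9.15 and 9.36 in N2, 9.87, 9.63 and 10.43 in nth-1, 9.90 and 10.17 in xpa-1, and 8.94 and 8.75 in the double mutant. On the brighter it ranged from 11.69 and 11.84 in the double mutant through 12.02 and 12.05 in N2 to 12.29 and 12.49 in xpa-1, with nth-1 at 11.96 to 12.58. The 2 single mutants lay above N2 and the double mutant below it on the dimmer probe set, and on the brighter nth-1 overlapped N2. On the dimmer and the brighter probe set dnj-13 differed between the double mutant and xpa-1 by -1.19 (SE 0.28, adjusted p = 0.011) and by -0.63 (SE 0.20, adjusted p = 0.037), and between the double mutant and nth-1 by -1.13 (adjusted p = 0.0095) and -0.44 (adjusted p = 0.089).

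The 2 calls of dnj-13 against xpa-1 were lost without either double mutant array or xpa-1 replicate 2, the brighter one also without either N2 array or xpa-1 replicate 1 (highest adjusted p 0.083 and 0.18), and with the BioC sets as a block (-1.06, adjusted p = 0.062, and -0.73, adjusted p = 0.071). The call against nth-1 was lost without either double mutant array (highest 0.085). Its interaction of -1.91 on the dimmer probe set passed under every omission of an array (highest 0.028).

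Few other genes of the Hsp70 system were called against N2. Of all probe sets, 3.06% rose and 6.98% fell in nth-1, 3.89% and 6.65% in xpa-1, and 4.24% and 4.4% in the double mutant. Of 28 other J protein genes, 1 rose and 1 fell in nth-1, 0 rose and 1 fell in xpa-1, and 0 rose and 1 fell in the double mutant. They were dnj-7 (0.88, adjusted p = 0.041) and dnj-24 (-0.76, adjusted p = 0.0073) in nth-1, dnj-24 (-0.68, adjusted p = 0.017) in xpa-1 and dnj-28 (-0.89, adjusted p = 0.041) in the double mutant. Against xpa-1, 1 of the 28 was higher and 9 were lower in the double mutant (19.4% and 15.5% of all probe sets), with dnj-24 (0.85) the higher and dnj-28 (-1.48) among the lower. Of 3 genes listed as BAG-domain exchange factors, limma called 0 against N2 or xpa-1 (at most 1 at an unadjusted p under 0.05), and of 2 other Hsp70 family genes (F11F1.1 and stc-1), 0 were called against N2 (0 also at an unadjusted p under 0.05) and stc-1 was lower in the double mutant than in xpa-1 (-0.58, adjusted p = 0.027).

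Of the mitochondrial pair, hsp-60 was called on 1 of its 2 probe sets, and hsp-6 was called in none of the 7 comparisons. On the brighter probe set hsp-6 (C37H5.8) was 11.64 and 11.59 in N2, 11.57, 11.44 and 12.25 in nth-1, 12.36 and 12.46 in xpa-1, and 12.29 and 12.32 in the double mutant. On this probe set it was thus high in xpa-1 and the double mutant alike, and in nth-1 only replicate 3 came near them. The dimmer probe set, at 7.48 and 7.32 in N2 and 7.74 to 8.11 in the double mutant and xpa-1, had the same order of strain means. In nth-1 it was 7.69, 7.80 and 7.74, so every nth-1 array lay above both N2 arrays and nth-1 overlapped the double mutant. Against N2, hsp-6 differed by 0.80 (SE 0.23, adjusted p = 0.064 from limma) and 0.55 (adjusted p = 0.090) in xpa-1 and by 0.69 (SE 0.23, adjusted p = 0.10) and 0.53 (adjusted p = 0.11) in the double mutant, none of which passed. Without nth-1 replicate 3 all 4 passed, with adjusted p between 0.00058 and 0.046. Between the double mutant and xpa-1 hsp-6 differed by -0.11 (SE 0.23, adjusted p = 0.76). Between the double mutant and nth-1 it differed by 0.55 (SE 0.21, adjusted p = 0.073 from limma) on the brighter probe set. On the dimmer this difference was 0.18 (adjusted p = 0.43), and neither passed.

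The chaperonin gene hsp-60 (Y22D7AL.5) was 7.95 and 7.92 in N2, 8.16, 8.12 and 8.10 in nth-1, 8.47 and 8.71 in xpa-1, and 7.79 and 7.46 in the double mutant on the brighter probe set. The 4 strains did not overlap on it. Between the double mutant and xpa-1 it differed by -0.97 (SE 0.18, adjusted p = 0.0047), between the double mutant and nth-1 by -0.50 (SE 0.17, adjusted p = 0.044), and between xpa-1 and N2 by 0.66 (SE 0.18, adjusted p = 0.055). The first passed with the BioC sets as a block (-0.85, adjusted p = 0.028) and under every omission but that of double mutant replicate 2 (adjusted p = 0.053), and the second was lost without 6 of the 9 arrays (both double mutant, both N2 and nth-1 replicates 1 and 2, highest 0.32).

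The dimmer hsp-60 probe set did not show this order. It was 7.30 and 7.97 in N2, 7.25, 6.88 and 6.69 in nth-1, 7.63 and 7.43 in xpa-1, and 7.39 and 7.69 in the double mutant, and differed by 0.01 (adjusted p = 0.98) between the double mutant and xpa-1. It was the only gene of the 6 whose 2 probe sets did not correlate over the arrays (r = -0.17), the other 5 lying between 0.66 and 0.94. The calls of hsp-60 are therefore those of 1 of its 2 probe sets.

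Around this pair, limma called 0 of 10 other genes listed as mitochondrial chaperones and proteases in each mutant against N2 (0 in nth-1, 5 in xpa-1 and 2 in the double mutant at an unadjusted p under 0.05), and against xpa-1 it called 1 higher and 5 lower in the double mutant (19.4% and 15.5% of all probe sets). The genes named here in that comparison were chosen after their values were seen. Those lower were the Lon protease gene lonp-1 (-1.02, adjusted p = 0.0038), the chaperonin 10 gene Y22D7AL.10 (-0.83, adjusted p = 0.016), the GrpE-like exchange factor gene C34C12.8 (-1.12, adjusted p = 0.015), the protease gene spg-7 (-0.45, adjusted p = 0.042) and trap-1 (-1.12, adjusted p = 0.0068), a symbol that in worms stands for a translocon-associated protein of the endoplasmic reticulum and not for a mitochondrial chaperone. The protease subunit gene clpp-1 was higher (0.92, adjusted p = 0.0060).

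Of 5 genes of mitochondrial unfolded protein response factors, 2 rose in nth-1 (3.06% of all probe sets), and 2 rose and 1 fell in xpa-1 (3.89% and 6.65% of all). atfs-1, the transcription factor of the response, was 7.12 and 7.01 in N2, 8.38, 7.77 and 8.08 in nth-1, 7.88 and 8.48 in xpa-1, and 6.66 and 6.72 in the double mutant. It rose by 1.01 (adjusted p = 0.028) in nth-1 and 1.12 (adjusted p = 0.027) in xpa-1. The peptide exporter gene haf-1 rose by 1.66 (adjusted p = 0.019) and 1.54 (adjusted p = 0.035), and ubl-5 fell by 1.19 in xpa-1 (adjusted p = 0.022). In the double mutant limma called 0 of the 5 against N2 (1 at an unadjusted p under 0.05) and 3 were lower than in xpa-1 (15.5% of all probe sets), atfs-1 by -1.49 (adjusted p = 0.0028).

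**Figure D3:**
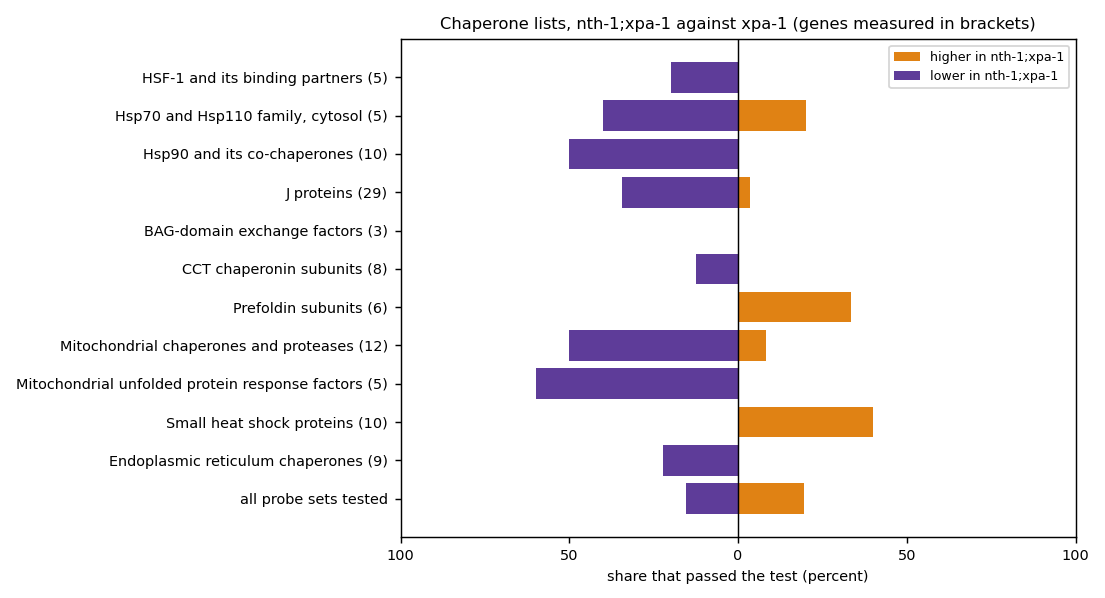
Share of the measured genes of 11 chaperone lists, the 9 genes included where a list holds them, that were called lower (left, purple) or higher (right, orange) in the double mutant than in xpa-1, in percent, with the share of all probe sets tested in the bottom row. Most lists show more calls to the left, and small heat shock proteins and prefoldin show calls to the right alone.

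Small heat shock proteins hold unfolded proteins without ATP and are also HSF-1 targets. Some of their genes were, like hsp-70, lower in xpa-1 than in N2. In the double mutant hsp-16.2 was not above N2, where hsp-70 was. Of 10 measured, 2 fell in nth-1 and in xpa-1 (hsp-16.41 by -3.47 and -4.06, adjusted p = 0.0049 and 0.0043, and hsp-16.2 by -3.04 and -3.56, adjusted p = 0.0073 and 0.0062). Of all probe sets, 6.98% fell in nth-1 and 6.65% in xpa-1. hsp-16.2 was 9.48 and 9.35 in N2, 5.66, 5.93 and 7.54 in nth-1, 6.17 and 5.55 in xpa-1, and 9.31 and 9.24 in the double mutant. Both hsp-16 genes were thus low in the single mutants, less so in nth-1 replicate 3, and near the N2 level in the double mutant, where hsp-12.6 rose by 1.43 (adjusted p = 0.031). The double mutant had 4 of the 10 higher than xpa-1 and 0 lower (19.4% and 15.5% of all probe sets).

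In the remaining systems the calls against N2 were of single genes. Of all probe sets, 3.89% rose and 6.65% fell in xpa-1, and 4.24% rose and 4.4% fell in the double mutant. Among 8 subunits of the CCT chaperonin, which folds actin and tubulin, only cct-2 in xpa-1 was called (1.06, rising from 11.30 and 11.47 to 12.35 and 12.54). Among 6 prefoldin subunits, pfd-5 was called lower in xpa-1 (-0.51) and higher in the double mutant (0.53). Among 9 chaperones of the endoplasmic reticulum, hsp-4, the worm BiP, was called higher in xpa-1 (0.87), at 11.29 and 11.50 against 10.47 and 10.58 in N2, and it was 10.14 on both double mutant arrays.

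**Figure D4:**
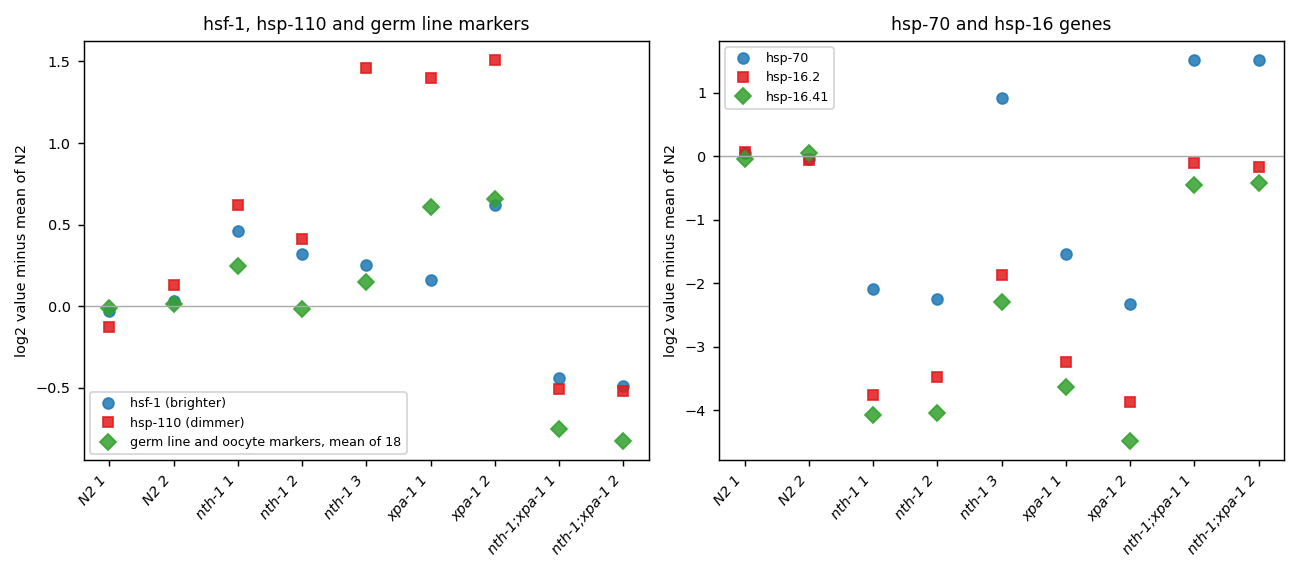
Log2 value minus the N2 mean on each array (x axis). The left panel shows hsf-1 (brighter probe set), hsp-110 (dimmer probe set) and the mean of 18 germ line and oocyte markers. The right panel shows hsp-70, hsp-16.2 and hsp-16.41. On the left the xpa-1 arrays are above 0 and the double mutant arrays below, and on the right the single mutant arrays are below 0 except nth-1 replicate 3 for hsp-70.

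Markers of some cell types moved with these groups. Of 18 germ line and oocyte markers, 5 rose and 0 fell in xpa-1 against N2 (3.89% and 6.65% of all probe sets), 0 rose and 10 fell in the double mutant (4.24% and 4.4% of all), and 17 were lower in the double mutant than in xpa-1 (15.5% of all). Their summed unlogged level was 52170 to 53363 in N2, 51068 to 60606 in nth-1, 77346 to 78017 in xpa-1 and 31412 to 32735 in the double mutant, with no overlap between xpa-1, N2 and the double mutant. Of 5 yolk protein genes of the adult intestine, 3 were lower in the double mutant than in xpa-1, with sums of 32328 to 34387 against 88285 to 92881 (68179 to 71050 in N2). No marker was at 0 on any array, and the part of these cells in the chaperone differences was not tested.

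Fewer calls fell on the other marker lists between the double mutant and xpa-1. Of 25 sperm genes 3 were higher and 0 lower, of 10 body wall muscle genes 1 and 1, of 11 neuron genes 3 and 0, and of 10 cuticle genes 0 and 1. Of all probe sets, 19.4% were called higher and 15.5% lower in this comparison. Summed sperm markers differed between the xpa-1 replicates, at 27841 in replicate 1 and 74266 in replicate 2, against 72517 and 77527 in the double mutant. nth-1 replicate 3, which stood apart for hsp-70, hsp-110 and hsp-6, had summed sperm markers of 35657 against 74979 and 72595 in the other nth-1 arrays, neuron markers of 25244 against 13562 and 12249, and yolk genes of 40829 against 86975 and 81081. Their part in its chaperone values was not tested.

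The profiles most like those of hsf-1 and hsp-70 were looked for among 10719 probe sets with 1 symbol and a mean above the median of all, as a description over 9 arrays of 4 strains. For hsf-1 they were immt-2 (r = 0.995), gtf-2E1 (r = 0.993) and uba-5 (r = 0.992). immt-2 was 9.54 and 9.78 in N2, 10.65, 10.36 and 10.10 in nth-1, 10.11 and 10.92 in xpa-1, and 8.94 and 8.74 in the double mutant. For hsp-70 they were rnt-1 (r = 0.996), F40G12.5 (r = 0.992) and C53C7.5 (r = 0.990), with rnt-1 at 8.36 and 8.40 in N2, 7.23, 7.18 and 8.82 in nth-1, 7.62 and 7.31 in xpa-1, and 9.02 and 9.20 in the double mutant.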

How the data were processed

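The deposited table holds log2 expression values of 22625 probe sets on 9 arrays. Per the methods the authors scaled all arrays in dChip by invariant-set normalization and modelled expression from perfect-match probes only (version not given in the sources used here). There are 3 arrays of nth-1 and 2 of each other strain, although the methods speak of 3 replicates for all. No more precision can be had than this number of arrays allows. After 77 control probe sets were removed, each probe set was fitted with a coefficient per strain (limma 3.58.1, R 4.3.3), and tests used eBayes with a variance trend, 5 residual degrees of freedom and Benjamini-Hochberg adjustment. No filter on low values was used, so all 15 probe sets of the 9 genes were tested. The genes, the 17 lists and the rules for naming genes were chosen with earlier results of these data known. Named are the 9 genes with all their probe sets. Up to 3 called genes per list and mutant against N2, and the 3 profiles most like hsf-1 and hsp-70, are also named. The brightest probe set leads, but for hsp-110 and dnj-13 the text gives the dimmer first. For these genes the dimmer probe set had the larger difference between the double mutant and xpa-1. Alternatives were quantile normalization, 32 added before the logarithm, no variance trend, probe sets above the 40th percentile, strains of a comparison alone, the replicate number or the BioC sets (a split found in the data) as a block, each array left out, and the other probe set, which for comparisons not against N2 was added after seeing the data. Replicates are taken as separate cultures as the methods describe them. In simulated data with few changed probe sets, the fit recovered 39 of 100 changes of 1 log2 unit in the double mutant against N2. Of changes of 2 log2 units it recovered 80 of 100. A probe set that was not called may therefore still have changed. Sequences and coordinates are not given here. Figures were drawn with matplotlib 3.10.9.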

Additional observations from a re-analysis of the deposited data

Results flagged for a closer look

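The change in the double mutant differed from the sum of the changes in the single mutants, by limma's test of the interaction on the log2 scale, for 10 of the 15 probe sets. The same test called 39.4% of all probe sets. The heat shock factor hsf-1 had an interaction of -1.20 (standard error, SE, 0.28, adjusted p = 0.0097) on its brighter and -1.26 (SE 0.23, adjusted p = 0.0032) on its dimmer probe set. For hsp-110 the values were -1.06 (adjusted p = 0.016) and -2.80 (SE 0.43, adjusted p = 0.0016), and for dnj-13 -0.79 (adjusted p = 0.044) and -1.91 (SE 0.38, adjusted p = 0.0047). The brighter probe set of hsp-60 gave -1.16 (adjusted p = 0.0067), sti-1 -2.17 (adjusted p = 0.020) and the dimmer probe set of hsp-90 -0.52 (adjusted p = 0.036). In the other direction hsp-70 gave 4.59 (adjusted p = 0.016). Both probe sets of hsf-1, the dimmer ones of hsp-110 and dnj-13 and the brighter one of hsp-60 passed under every omission of an array. With the BioC sets as a block limma called 0 of the 15, with 3 at an unadjusted p under 0.05, and it called 6.34% of all probe sets. All 4 strains have under 4 arrays, so no array was tested as an outlier within its strain.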

How the results depend on the processing

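Calls among the 15 probe sets numbered 0 in nth-1, 1 in xpa-1 and 0 in the double mutant against N2, 6 and 9 in the double mutant against nth-1 and xpa-1, 0 in xpa-1 against nth-1, and 10 for the interaction. In the same order, 10%, 10.5%, 8.64%, 36.7%, 34.8%, 0.0266% and 39.4% of all probe sets were called. Quantile normalization gave 3 and no variance trend 2 in xpa-1 against N2. Fitted with the strains of a comparison alone, xpa-1 gave 8 and the double mutant 9 against N2, in fits that called 18.2% and 43.7% of all probe sets. With the BioC sets as a block the counts were 0 in xpa-1 against N2, 0 and 4 in the double mutant against nth-1 and xpa-1, and 0 for the interaction. Of all probe sets, 3.36%, 4.78%, 25% and 6.34% were called in these comparisons with the block. Leaving out 1 array gave 0 to 2, 0 to 12 and 0 to 4 against N2, 0 to 8 and 2 to 10 against nth-1 and xpa-1, 0 to 3 in xpa-1 against nth-1, and 5 to 11 for the interaction. The share of all probe sets called also varied between these omissions, and it was highest without nth-1 replicate 3. In the same order of comparisons it was then 26.9%, 28.6% and 26.2%, 50.5% and 50.2%, 5.2%, and 53.3%. A group left with 1 array was assumed to vary like the others.

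The replicate numbers did not pair the arrays (correlations of same-numbered deviations from the strain means -0.26 to 0.10 over 12 pairs). With a replicate block, where replicate 3 exists in nth-1 alone and takes its own coefficient, the counts were 1, 10 and 2 against N2, 8 and 9 in the double mutant against nth-1 and xpa-1, 3 in xpa-1 against nth-1 and 10 for the interaction. In the same order, this block called 22.5%, 24%, 22.4%, 47.5%, 47.2%, 3.63% and 50.3% of all probe sets.

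Single values reversed, or came to about 0 where 0.00 is printed, as follows, with the cause not tested. With the BioC sets as a block, nth-1 against N2 gave -0.12 for hsf-1, -0.41 for sti-1, -0.40 for hsp-1 and -0.05 for hsp-60, and hsp-1 in the double mutant against nth-1 gave 0.71. With the replicate block, nth-1 against N2 gave -0.01 for hsp-110, -0.02 for dnj-13 and -0.11 for hsp-6, hsp-1 in the double mutant against nth-1 0.07, hsf-1 and hsp-70 in xpa-1 against nth-1 0.00 and 0.24, and the hsp-6 interaction 0.00. Leaving out nth-1 replicate 3 gave these same values, and over all omissions nth-1 against N2 ran to 0.30 for hsp-110, 0.29 for dnj-13 and 0.29 for hsp-6. The other probe set of hsp-60 gave -0.69 and -0.10 in nth-1 and xpa-1 against N2, 0.60 and 0.01 in the double mutant against nth-1 and xpa-1, and 0.70 for the interaction, and that of hsp-90 gave 0.08 in xpa-1 against nth-1. Without 1 array, hsp-90 in the double mutant against N2 ran from -0.03 to 0.08, hsp-1 in the double mutant against nth-1 from -0.53 to 0.13, and in xpa-1 against nth-1 hsf-1 ran from -0.18 to 0.28, hsp-90 from -0.10 to 0.00 and hsp-70 from -1.34 to 0.24.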
